A study of Mus musculus with 6 samples.

Results

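The genes described here encode the proteins that coat lipid droplets and that control the release of fatty acids from them. They were chosen by symbol, with earlier results of these data known. The coat genes are the perilipins Plin2, Plin3, Plin4 and Plin5 and the CIDE genes Cideb and Cidec. The others are the lipase genes Pnpla2 and Pnpla3 and the lipase inhibitors Hilpda and G0s2. All 10 were found in the count table of 54532 genes, and all 10 passed the filter on low counts that left 14758 genes for testing. RNA of whole liver was sequenced from 6 mice of the C57BL/6J/Rj strain. The 3 knockout mice carried LysMcre/+ with Cd44 flox/flox, and the 3 controls were littermates with LysM+/+ and Cd44 flox/flox. Both groups therefore carried the floxed gene and both received ethanol: 10 days of Lieber-DeCarli liquid diet (6% ethanol by volume), and on day 11 a gavage of 5 g per kg, with the liver taken 9 hours later. LysM-Cre acts in myeloid cells such as macrophages, monocytes and neutrophils and not in hepatocytes, which hold most liver fat. Livers with Cre alone and livers without ethanol were not analysed here, and age and sex are not given in the sources used here.

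A lipid droplet is a core of triglyceride and sterol ester under a single layer of phospholipid, and the perilipins sit on that layer and limit the access of lipases. PLIN2 is the main perilipin of the fatty hepatocyte, PLIN3 binds small new droplets, PLIN4 is best known from adipocytes and muscle, and PLIN5 ties droplets to mitochondria in cells that burn fat. CIDEC, also called FSP27, lets lipid pass from small droplets into larger ones, and CIDEB serves droplet growth and the loading of very low density lipoprotein in hepatocytes. PNPLA2, also called ATGL, takes the first fatty acid from triglyceride, ABHD5 activates it, and the small proteins G0S2 and HILPDA inhibit it. PNPLA3 is a relative of PNPLA2 that binds ABHD5 on the droplet. Ethanol raises liver fat, and Plin2 and Cidec are widely used as markers of a fatty liver.

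Cd44 and Lyz2, the gene that carries the Cre insertion, checked the labels. Cd44 stood at 31.3 ± 4.35 CPM (counts scaled to library size) in controls and 2.35 ± 0.579 CPM in knockouts (SD, n = 3 livers per group, as for every ± below), and Lyz2 at 216 ± 20 CPM and 48.3 ± 16 CPM. For both, the highest knockout lay below the lowest control. Library totals ran from 18428224 to 24042917 counts, so that 3 counts corresponded to 0.119 to 0.148 CPM. Albumin, the defining gene of hepatocytes, stood at 52690 to 96510 CPM over the 6 livers. Each log2 value below is the fitted difference of knockout minus control with its standard error (SE), and each adjusted p comes from the quasi-likelihood test of edgeR, adjusted over all 14758 genes by the Benjamini-Hochberg method. A gene passed the test at an adjusted p under 0.05. The labels name each library as a mouse, and the p-values measure the spread among these mice.

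Of the 10 genes, 3 passed the test, and all 3 were lower in the knockout livers: Cidec, Hilpda and Plin2. Over all genes, 25% passed in either direction, 13.1% as lower (1933 genes) and 11.9% as higher (1751 genes), so the 30% of the 10 genes that passed is near the share of all genes. With libraries scaled by their totals, 3698 genes were lower and 904 higher, and of the 10 genes 4 were lower and 0 higher. The controls and the knockouts did not overlap for 5 of the 10 genes, Plin2, Cideb, Cidec, Hilpda and Pnpla2, and for 43.8% of all genes. The median log2 difference of the 10 genes was 0.15, against −0.01 over all genes tested, and 4 of the 10 had a log2 difference below 0. The 10 log2 differences ran from −1.94 for Cidec to 1.36 for G0s2, and of the 6 above 0 none passed the test. In whole liver, fewer cells of a type and less RNA per cell cannot be told apart, and this holds for every difference below.

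**Figure D1:**
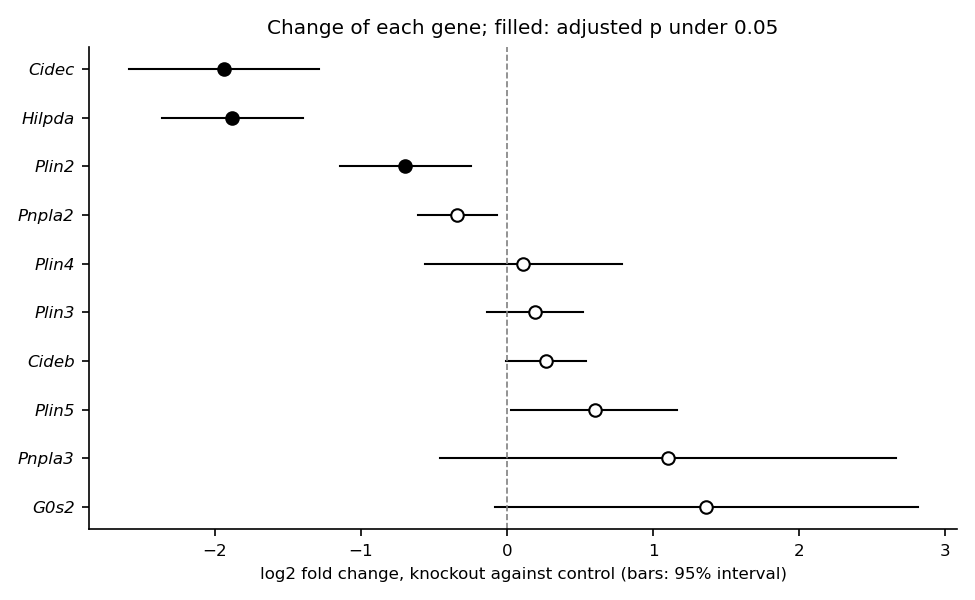
Log2 difference of the knockout against the control livers (horizontal axis) for each of the 10 genes (vertical axis), with points for the fitted value and bars for its 95% interval. Filled points passed the test; Cidec (−1.94) and Hilpda (−1.88) lie farthest to the left and G0s2 (1.36) farthest to the right with the widest interval but that of Pnpla3.

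The promoter sequences of the 3 genes that fell are shown because these genes fell together, while no other gene of the 10 passed the test. They are from RefSeq (GRCm38.p6), run 5′ to 3′ on the strand of the gene, and cover 250 bases before to 50 bases after a start site. RefSeq gives 13 such windows for the 10 genes, 2 each for Cidec, Hilpda and Plin5. Capitals mark exact matches, on either strand, to the motifs searched. The first is the window of Plin2 (chr4:86670010-86670309, minus strand), followed by both windows of Cidec (chr6:113435711-113436010 and chr6:113434715-113435014, minus strand) and the second window of Hilpda (chr6:29272376-29272675, plus strand).
Plin2: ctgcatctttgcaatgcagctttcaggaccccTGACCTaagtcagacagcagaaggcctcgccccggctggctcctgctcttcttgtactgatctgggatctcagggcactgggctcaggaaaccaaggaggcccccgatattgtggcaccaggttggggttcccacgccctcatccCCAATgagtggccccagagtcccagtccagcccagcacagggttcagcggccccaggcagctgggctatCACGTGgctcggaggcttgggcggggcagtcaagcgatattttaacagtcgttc
Cidec window 1: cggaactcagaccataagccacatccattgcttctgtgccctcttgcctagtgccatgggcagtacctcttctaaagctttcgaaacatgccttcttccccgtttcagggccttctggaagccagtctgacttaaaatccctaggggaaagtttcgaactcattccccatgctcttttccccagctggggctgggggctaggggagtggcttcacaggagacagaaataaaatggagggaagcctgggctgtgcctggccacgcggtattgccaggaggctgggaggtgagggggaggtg
Cidec window 2: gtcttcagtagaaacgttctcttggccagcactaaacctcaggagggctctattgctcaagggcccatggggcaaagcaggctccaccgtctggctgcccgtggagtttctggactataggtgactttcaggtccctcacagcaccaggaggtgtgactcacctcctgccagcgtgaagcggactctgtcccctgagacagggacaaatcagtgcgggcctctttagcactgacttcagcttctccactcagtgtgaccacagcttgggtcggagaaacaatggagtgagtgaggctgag
Hilpda window 2: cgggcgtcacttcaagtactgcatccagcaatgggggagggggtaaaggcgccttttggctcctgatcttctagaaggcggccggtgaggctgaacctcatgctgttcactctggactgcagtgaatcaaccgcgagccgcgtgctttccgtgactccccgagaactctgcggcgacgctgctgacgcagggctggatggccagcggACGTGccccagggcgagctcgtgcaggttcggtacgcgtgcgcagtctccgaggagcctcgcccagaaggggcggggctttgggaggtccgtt

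The motifs were AGGTCA, the core to which nuclear receptors such as the PPARs bind, and a direct repeat of AGGTCA with 1 base between the copies. ACGTG, 1 form of the core of the hypoxia response element, was searched, but its other form GCGTG was not. The rest were the E-box CACGTG, the cAMP response element TGACGTCA, the TATA box TATAAA and the CCAAT box. ACGTG lies inside CACGTG on both strands, so every E-box is also a match to the hypoxia core. In the Plin2 window, AGGTCA was found on the opposite strand from −218 to −213, CCAAT from −73 to −69 and CACGTG from −4 to 1, counted with the start site as 0. In the second Hilpda window ACGTG was found once, from −43 to −39, and the first Hilpda window held no match to any of the motifs. Neither window of Cidec held a match. Plin2 and Hilpda thus shared ACGTG, and no motif of this search was common to all 3 genes that fell. This does not cover GCGTG, so it does not show that Cidec lacks a hypoxia core. Of 32851 promoter windows of the same length, 16.3% held AGGTCA, 0.0396% the direct repeat, 19.6% ACGTG, 7.15% CACGTG, 1.79% TGACGTCA, 13.6% TATAAA and 37.4% CCAAT. Among the genes that did not pass the test, the windows of G0s2 and Pnpla2 held no match, those of Plin3 and Plin4 held CCAAT, Plin5 held AGGTCA in both windows and CCAAT in the first, Cideb held TATAAA, and Pnpla3 held TGACGTCA from −46 to −39 with a CCAAT box. These matches describe the letters only and were not tested as binding sites.

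Of the 2 CIDE genes, 1 fell and the other did not pass the test. Cidec (ENSMUSG00000030278, chromosome 6, 113424634 to 113435760 on the minus strand, GRCm38), the gene of droplet enlargement, measured 168, 113 and 84.4 CPM in the controls against 28.7, 24.3 and 42.4 CPM in the knockouts. Every knockout liver was below every control. The mean fell from 122 ± 42.4 to 31.8 ± 9.43 CPM, a 3.83-fold decrease (log2 −1.94, SE 0.29, 95% interval −2.59 to −1.29, adjusted p = 0.00283). The decrease passed the test under each of the 15 alternatives run for it, with log2 values from −2.19 to −1.62.

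Cideb (ENSMUSG00000022219, chromosome 14, 55754050 to 55758458 on the minus strand), the CIDE gene of healthy hepatocytes, measured 42.9, 36.8 and 41.4 CPM in the controls and 45.5, 54.0 and 46.1 CPM in the knockouts. The groups did not overlap, but the log2 difference of 0.27 (SE 0.12, 95% interval −0.01 to 0.54) did not pass (adjusted p = 0.139), and it was 0.01 when libraries were scaled by their totals. Of the exon bases of Cideb, 1136 (76.3%) are shared with Nop9, a ribosome assembly gene on the opposite strand. The strand setting of the counting is not given in the sources used here, so the level of Cideb is uncertain. Nop9 itself stood at 25.0 ± 2.05 and 25.7 ± 2.31 CPM.

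Divided by exon length, Cidec made up 75.8%, 71.2% and 62.0% of the summed Cidec and Cideb transcripts in the controls and 33.6%, 26.5% and 42.4% in the knockouts. By these counts Cidec was the more abundant CIDE transcript per length in every control liver, and Cideb in every knockout liver. This order, the shares and the sum of both are as uncertain as the level of Cideb. The sum of both stood at 119, 85.6 and 73.3 CPM per kilobase in the controls and 46.1, 49.4 and 53.8 in the knockouts. Cidea, the third family member and a gene of brown fat that fatty liver can also switch on, was too low for the filter. It had 12, 6 and 3 counts in the controls and 0, 1 and 0 in the knockouts. Tested without the filter, it was lower in the knockouts (log2 −3.81, adjusted p = 0.027 by edgeR), a fitted value that rests on few counts.

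Plin2 (ENSMUSG00000028494, chromosome 4, 86648386 to 86670060 on the minus strand) was the most abundant of the 10 transcripts. The controls had 1382, 1210 and 829.6 CPM and the knockouts 688, 749.9 and 674 CPM. The lowest control lay above the highest knockout, and the controls were spread far more widely than the knockouts. The mean fell from 1141 ± 283 to 704 ± 40.4 CPM, a 1.62-fold decrease (log2 −0.70, SE 0.19, 95% interval −1.14 to −0.25, adjusted p = 0.0318). This call was fragile: it was kept in 9 of 15 alternatives, and the adjusted p was 0.09, 0.0969, 0.103, 0.0522 and 0.0788 without control 1, control 2, knockout 1, knockout 2 and knockout 3. It was 0.0557 with the mouse number as a replicate block. The log2 difference was negative in all 15, from −0.96 to −0.52.

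Plin5 (ENSMUSG00000011305, chromosome 17, 56111601 to 56117596 on the minus strand), the perilipin of fat-burning cells, measured 78.4, 49.0 and 47.5 CPM in the controls and 69.1, 117 and 78.4 CPM in the knockouts. Control 1 lay level with knockout 3 and above knockout 1, so the groups overlapped. The log2 difference was 0.60 (SE 0.25, 95% interval 0.03 to 1.16, for this gene alone), and it did not pass (adjusted p = 0.118). Without control 1 it was 0.88 and passed (adjusted p = 0.0361), and without knockout 2 it was 0.34 (adjusted p = 0.312). It also passed when no filter on low counts was used (adjusted p = 0.0335).

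Plin3 (ENSMUSG00000024197, chromosome 17, 56277476 to 56292873 on the minus strand) measured 91.3, 92.2 and 80.4 CPM in the controls and 108, 80.7 and 113 CPM in the knockouts. Plin3 is present in most cell types and needs no fat to be stable. Its log2 difference of 0.19 (SE 0.15, 95% interval −0.14 to 0.52) did not pass (adjusted p = 0.381) and was −0.06 with library totals. Plin4 (ENSMUSG00000002831, chromosome 17, 56100591 to 56109803 on the minus strand) measured 21.4, 13.8 and 13.0 CPM in the controls and 11.6, 15.6 and 25.0 CPM in the knockouts. Its lowest and its highest liver were both knockouts. The log2 difference was 0.11 (SE 0.29, 95% interval −0.56 to 0.79, adjusted p = 0.814), and it was −0.24 without knockout 3 and −0.14 with library totals. The interval leaves room for a change of Plin4 in either direction.

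Plin4, Plin5 and Plin3 lie in that order on the minus strand of chromosome 17 within 192283 bases. Plin4 and Plin5 are 1797 bases apart, and Plin5 and Plin3 159879 bases apart. Plin2 is on chromosome 4 and was the only tested perilipin that passed. Cidec and Hilpda are both on chromosome 6 but 84149187 bases apart, on opposite strands.

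**Figure D2:**
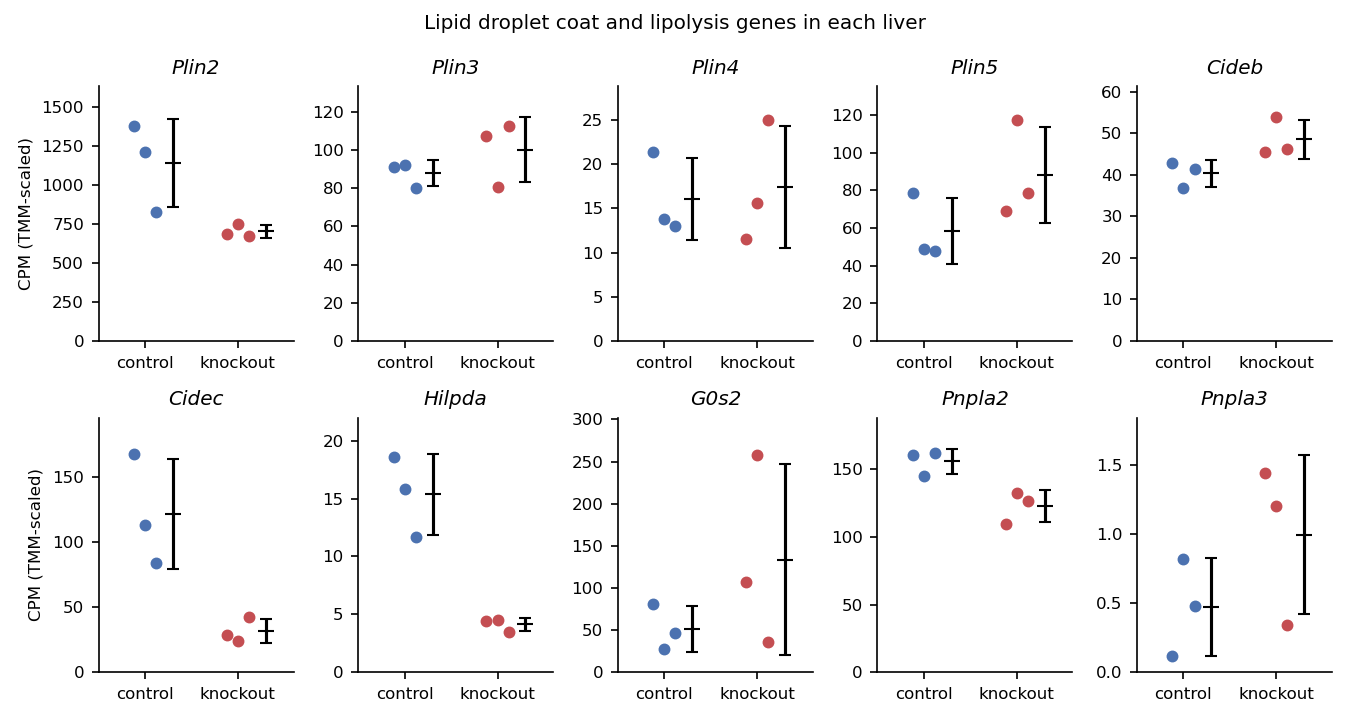
Level of each of the 10 genes in each liver, in CPM on a linear vertical axis from 0 with its own scale for each gene, with a point per liver (controls blue, knockouts red) and black bars for the group mean ± SD. Cidec and Hilpda show a wide gap between the groups, Plin2 a narrow gap, and the points of G0s2 spread from 27.6 to 258 CPM with the groups mixed.

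Within the perilipin family, the make-up of the transcripts differed between the groups. Per exon length, Plin2 made up 85.8%, 87.3% and 83.6% of the 4 perilipins in the controls and 75.5%, 72.7% and 72.8% in the knockouts, and the groups did not overlap. The share of Plin5 was 8.19%, 5.95% and 8.06% in the controls and 12.8%, 19.1% and 14.3% in the knockouts, again without overlap. The share of Plin3 was 6.31% ± 1.14 and 9.83% ± 2.23, and that of Plin4 0.736% ± 0.114 and 1.11% ± 0.467, and for both the groups overlapped. The shares add up to the whole, so a lower share of Plin2 raises the others. The summed level of the 4 perilipins was 459, 395 and 283 CPM per kilobase in the controls and 259.5, 294 and 264 in the knockouts. Control 3 lay within the range of the knockouts, so the total of perilipin transcripts did not separate the groups while the share of Plin2 did. The mean share of Plin2 differed by −11.9 percentage points, and by −9.96 points when counts were not divided by length. These shares are descriptions and were not tested.

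**Figure D3:**
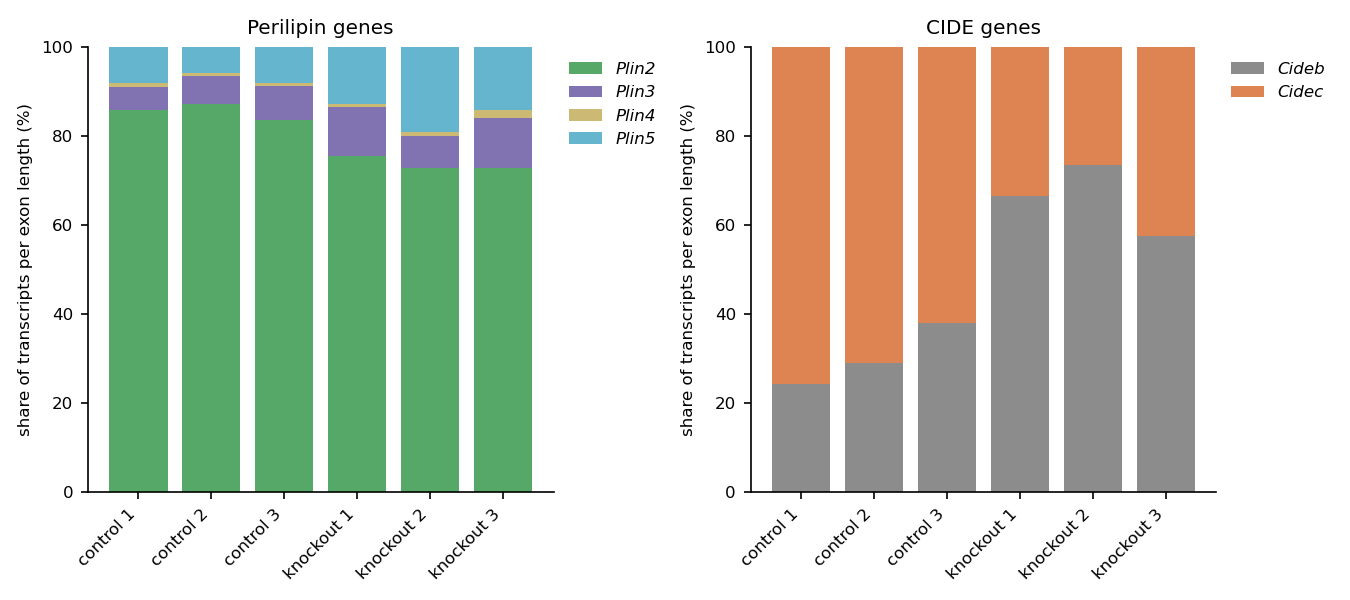
Make-up of the perilipin transcripts and of the CIDE transcripts in each liver, in percent of the summed CPM per kilobase of exon (vertical axis, stacked from 0). Plin2 takes 83.6% to 87.3% of the perilipin bar in controls and 72.7% to 75.5% in knockouts, and Cidec 62.0% to 75.8% and 26.5% to 42.4% of the CIDE bar. The CIDE shares are uncertain because most exon bases of Cideb are shared with Nop9.

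Pnpla2 (ENSMUSG00000025509, chromosome 7, 141455198 to 141460743 on the plus strand), the triglyceride lipase, measured 161, 145 and 162 CPM in the controls and 110, 133 and 126 CPM in the knockouts. The groups did not overlap, with means of 156 ± 9.35 and 123 ± 11.8 CPM. The log2 difference of −0.34 (SE 0.12, 95% interval −0.61 to −0.07, for this gene alone) did not pass over all genes (adjusted p = 0.0646). It passed with DESeq2 (log2 −0.34, adjusted p = 0.0495) and with library totals (log2 −0.60, adjusted p = 0.00616), a scaling that moves the median of all genes to −0.26.

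Of the 2 inhibitors of this lipase, 1 fell and the other did not pass the test. Hilpda (ENSMUSG00000043421, chromosome 6, 29272488 to 29275446 on the plus strand), an inhibitor induced by hypoxia and by fatty acids, measured 18.6, 15.9 and 11.7 CPM in the controls and 4.46, 4.52 and 3.50 CPM in the knockouts. The groups were far apart, with the lowest control above every knockout. The mean fell from 15.4 ± 3.49 to 4.16 ± 0.573 CPM, a 3.69-fold decrease (log2 −1.88, SE 0.21, 95% interval −2.36 to −1.40, adjusted p = 0.00102). It passed in all 15 alternatives, with log2 values from −2.14 to −1.71.

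G0s2 (ENSMUSG00000009633, chromosome 1, 193272161 to 193273217 on the minus strand), the other inhibitor, measured 81.5, 27.6 and 47.0 CPM in the controls and 107, 258 and 36.6 CPM in the knockouts. Knockout 2 was the highest liver and knockout 3 lay above control 2 only, so the groups overlapped. The log2 difference of 1.36 (SE 0.63, 95% interval −0.08 to 2.81) did not pass (adjusted p = 0.152). It was 0.47 without knockout 2 (adjusted p = 0.549), 1.86 without control 1 (adjusted p = 0.116), and 1.81 without knockout 3, where it passed (adjusted p = 0.0344). It also passed without the filter on low counts (log2 1.37, adjusted p = 0.0175). No direction can be given for G0s2 beyond its spread among these livers.

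Pnpla3 (ENSMUSG00000041653, chromosome 15, 84167837 to 84187236 on the plus strand), which feeding and insulin induce in mouse liver, was close to the limit of detection. It had 3, 17 and 11 counts in the controls and 30, 25 and 7 in the knockouts, or 0.119, 0.822 and 0.478 CPM against 1.44, 1.20 and 0.345 CPM. The log2 difference of 1.10 (SE 0.68, 95% interval −0.46 to 2.66, adjusted p = 0.274) did not pass here or in any of 14 alternatives. Its counts spread widely within both groups, and the interval leaves room for a change in either direction.

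The balance of the lipase and its regulators was then compared within each liver, as the log2 ratio of counts, which does not depend on the scaling between libraries. There were 8.63, 9.15 and 13.9 Pnpla2 counts for each Hilpda count in the controls and 24.5, 29.2 and 35.9 in the knockouts. On the log2 scale this ratio was 3.37 ± 0.38 and 4.88 ± 0.27, a difference of 1.52 without overlap (exact two-sided permutation p = 0.1, the smallest this design allows, adjusted p = 0.3 over the 3 ratios by the exact permutation test). The log2 ratio of Pnpla2 to G0s2 was 0.98, 2.40 and 1.79 in the controls and 0.04, −0.96 and 1.79 in the knockouts. Its means of 1.72 ± 0.71 and 0.29 ± 1.39 differed by −1.43 (exact permutation p = 0.2, adjusted p = 0.3), with control 3 and knockout 3 at the same value. The log2 ratio to Abhd5, the activator of the lipase, was 2.00 ± 0.33 and 1.94 ± 0.14, a difference of −0.06 (exact permutation p = 0.8). Its sign changed to 0.02, 0.05 and 0.02 without control 1, control 3 and knockout 1. Abhd5 itself stood at 39.4 ± 7.01 and 32.0 ± 1.07 CPM (log2 −0.30, adjusted p = 0.155). In these livers the lipase transcript thus stood higher relative to Hilpda in each knockout than in the highest control. Pnpla2 itself averaged 156 CPM in controls and 123 CPM in knockouts, so this ratio restates the decrease of Hilpda and shows no rise of the lipase transcript. No such separation was seen relative to G0s2 or Abhd5.

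**Figure D4:**
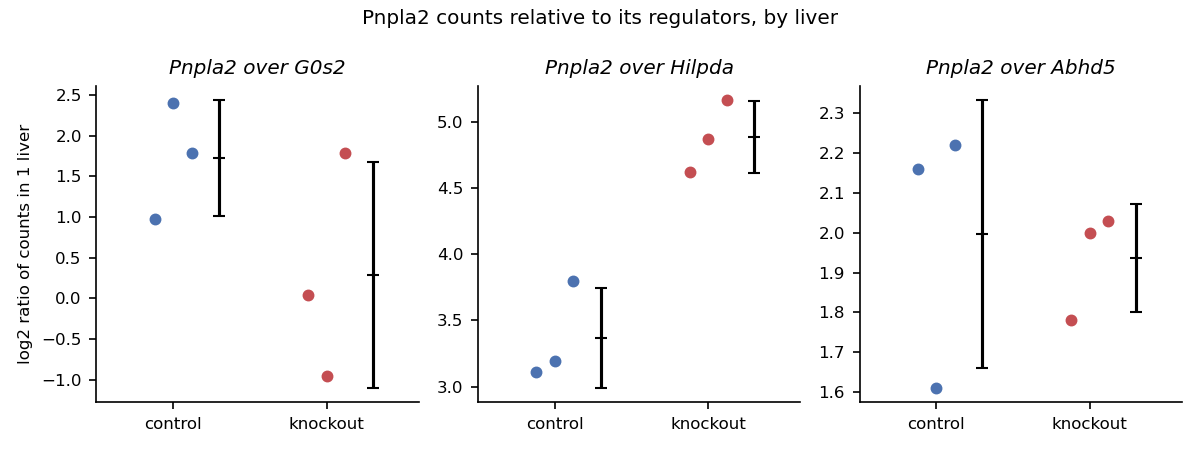
Log2 ratio of Pnpla2 counts to those of Hilpda, G0s2 and Abhd5 in the same liver (vertical axis), on a scale of its own for each ratio, with a point per liver and black bars for the mean ± SD of each group. The ratio to Hilpda is 3.11 to 3.80 in controls and 4.62 to 5.16 in knockouts, and for the other ratios the groups overlap.

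Compared per kilobase of exon, the order of the 10 transcripts differed between the groups. The place of Cideb in it is uncertain, since most of its exon bases are shared with Nop9. In controls, Plin2 led at 325 CPM per kilobase. Cidec (65.6), G0s2 (59.7) and Pnpla2 (51.7) followed and overlapped among livers, then Plin5 (27.9), Cideb (27.1) and Plin3 (23.2), of which Plin5 overlapped with both others and with the lowest liver of G0s2. Hilpda (13.9), Plin4 (2.78) and Pnpla3 (0.306) came last and were apart from their neighbours in every liver. In knockouts, Plin2 (200.5) was followed by G0s2 (154), whose spread reached from above Plin2 down to Plin5 (42.2) and Pnpla2 (40.7). Pnpla2 and Cideb (32.6) overlapped with Plin5 but not with each other. Plin3 (26.5) came next, and Cidec (17.1), next after Plin2 in the controls, came only after Plin3 in the knockouts, with overlapping ranges. Hilpda (3.77) overlapped Plin4 (3.01), and Pnpla3 (0.643) was again lowest.

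The genes whose pattern over the 6 livers was most like that of each described gene were found among 12115 protein-coding genes with a mean of at least 1 CPM, by the root mean square difference of centred log2 CPM. For Plin2 they were Trim62 (0.082), Tmem107 (0.098) and Carmil1 (0.108). For Cidec they were Rhoc (0.117), Enc1 (0.157) and March9 (0.159), and for Hilpda Aldh18a1 (0.102), Cd300lf (0.138) and Frzb (0.139). Pnpla2 was matched most closely by Sulf2 (0.047), Pla2g15 (0.048) and Nav1 (0.052). The nearest genes to G0s2 were farther away, Nat8f2 (0.472), Inhbe (0.474) and Zfp442 (0.51). This distance counts the size of the differences among livers as well as their order. G0s2 varied widely, so the larger distances do not show that no gene followed its pattern. None of these nearest genes is among the 10. The distances are descriptions over 6 livers that hold the group difference itself.

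The rest of the droplet machinery was examined by lists, whose genes were read from the same fit. Of 8 tested genes in the list of other droplet coat and associated proteins, 2 rose and 0 fell (median log2 0.06). Mettl7a1, a droplet-bound methyltransferase-like protein, rose from 180 ± 47.5 to 299.6 ± 26.8 CPM (adjusted p = 0.0288). Ldah, a droplet-associated hydrolase, rose from 33.6 ± 0.757 to 41.9 ± 1.43 CPM (adjusted p = 0.0462), a call kept in 5 of 15 alternatives. None of the list rose without control 2, knockout 1 or knockout 2, and 1 rose without any other single liver. With library totals the split turned round, to 0 higher and 1 lower. Hsd17b13, a hepatocyte droplet protein, stood at 1031 CPM in controls and 804.5 CPM in knockouts (log2 −0.36, adjusted p = 0.145).

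Of 12 genes of neutral lipid hydrolysis beside Pnpla2 and Pnpla3, 5 rose and 0 fell (median log2 0.40). The secreted hepatic lipase Lipc rose from 88.7 ± 16.7 to 179.7 ± 10.3 CPM (log2 1.02, adjusted p = 0.00276), endothelial lipase Lipg from 2.96 ± 1.19 to 11.1 ± 1.32 CPM (log2 1.90, adjusted p = 0.00329), and the microsomal esterase Aadac from 168 ± 29.8 to 326 ± 18 CPM (log2 0.96, adjusted p = 0.00365). Ddhd2 (log2 0.55, adjusted p = 0.0261) and the phospholipase Pnpla8 (log2 0.39, adjusted p = 0.0419), which was named to complete the count, rose too, but Pnpla8 passed in 6 of 15 alternatives and in none with 1 liver left out. LIPC and LIPG act on lipoproteins outside the cell and AADAC in the endoplasmic reticulum, so these 3 products work away from the droplet surface. The count was 3 without control 1, control 3 or knockout 1, where Ddhd2 did not pass either. With library totals 3 rose and 1 fell.

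Of 12 genes of droplet formation, 1 rose and 2 fell (median log2 0.05). Cavin1, a coat protein of caveolae, fell from 23.6 ± 4.22 to 11.4 ± 1.05 CPM (adjusted p = 0.00298), and Reep5, which shapes the endoplasmic reticulum, from 39.9 ± 2.67 to 23.5 ± 6.29 CPM (adjusted p = 0.0174). Fitm1, a droplet formation protein best known from muscle, rose from 1.24 ± 0.196 to 2.47 ± 0.535 CPM (adjusted p = 0.0365). Fitm1 passed in 7 of 14 alternatives and, with 1 liver left out, only without knockout 2, and Reep5 did not pass without control 1, control 3 or knockout 1. With library totals 0 rose and 2 fell. Of 20 genes of triglyceride and sterol ester synthesis, 4 rose and 2 fell (median log2 0.06). The last enzyme of triglyceride synthesis, Dgat2, rose from 549 ± 130 to 986 ± 183 CPM (adjusted p = 0.023) and the acyl-CoA synthetase Acsl1 from 237 ± 58.9 to 535 ± 174 CPM (adjusted p = 0.0132). Acsl4, which prefers arachidonate, fell from 200 ± 23.5 to 110 ± 18.9 CPM (adjusted p = 0.00604) and Soat1, which makes cholesteryl ester, from 15.8 ± 1.04 to 7.80 ± 2.21 CPM (adjusted p = 0.0081). Dgat2 did not pass without control 1, control 3, knockout 1 or knockout 2. The count of rising genes was 1 without control 1 and 2 without control 2, knockout 1 or knockout 2, and with library totals 1 rose and 4 fell.

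Of 14 genes of fatty acid uptake and binding, 5 rose and 3 fell (median log2 0.05). The bile acid and fatty acid ligase Slc27a5 rose from 309 ± 5.94 to 932 ± 140 CPM (adjusted p = 0.000565) and liver fatty acid binding protein Fabp1 from 712 ± 73.4 to 1344 ± 90.9 CPM (adjusted p = 0.00333). Lipoprotein lipase Lpl, which macrophages express, fell from 212 ± 23.1 to 47.9 ± 30.5 CPM (adjusted p = 0.00739). The count of rising genes was 3 without control 1, control 2 or knockout 1, and with library totals 3 rose and 4 fell.

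Plin2, Plin5, Cidec, Hilpda and G0s2 are known targets of the PPAR receptors, and Hilpda is induced by hypoxia, so the other targets of these factors were listed as well. Of 16 genes in the list of PPAR-alpha, the fatty acid sensor of hepatocytes, and its targets, 3 rose and 2 fell (median log2 0.08). The 3 that rose include the receptor gene Ppara. Pdk4 fell from 73.6 ± 50.1 to 12.7 ± 0.839 CPM (adjusted p = 0.00421) and Ehhadh, named to complete the count, from 616 ± 312 to 292 ± 38.5 CPM (adjusted p = 0.0365), while Ppara itself rose from 62.5 ± 7.05 to 119 ± 29.7 CPM (adjusted p = 0.00861), with Vnn1 (adjusted p = 0.0151) and Creb3l3 (adjusted p = 0.0263). Ehhadh did not pass without any 1 knockout, Vnn1 not without control 2, and Creb3l3 passed in 9 of 15 alternatives. The counts were 5 higher without control 1, 1 higher without control 2, and 1 lower without knockout 1 or knockout 3. Of 10 genes in the list of PPAR-gamma and its targets in fatty liver, 7 were tested, and Fabp4 (26.4 ± 4.50 to 11.2 ± 4.58 CPM, adjusted p = 0.012) and Ucp2 (80.4 ± 6.07 to 50.4 ± 6.48 CPM, adjusted p = 0.00761) fell, and 0 rose. Without control 1 or knockout 2, 1 rose. Pparg itself had a log2 difference of 0.35 (adjusted p = 0.212) and Cd36 one of −0.33 (adjusted p = 0.261).

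Of 15 tested hypoxia-inducible genes other than Hilpda, 7 fell and 2 rose (median log2 −0.18). The glycolytic regulator Pfkfb4 fell from 3.68 ± 0.498 to 1.06 ± 0.241 CPM (adjusted p = 0.00299), the glucose transporter Slc2a1 from 30.5 ± 3.23 to 15.9 ± 4.12 CPM (adjusted p = 0.011) and the collagen hydroxylase P4ha1 from 19.5 ± 1.75 to 13.5 ± 0.465 CPM (adjusted p = 0.0134). Pdk1, a kinase that slows pyruvate oxidation, rose from 35.2 ± 2.81 to 114 ± 8.53 CPM (adjusted p = 0.000179). Vegfa, named to complete the count of rising genes, rose from 89.8 ± 19.9 to 144 ± 9.52 CPM (adjusted p = 0.0204). The count of falling genes was 4 without control 1 or control 2 and 2 without knockout 1, where 1 rose and P4ha1 did not pass. Of 12 regulators and genes of lipogenesis, which make the fatty acids that droplets store, 7 rose and 0 fell (median log2 0.86). Thrsp rose from 23.6 ± 15.5 to 359.9 ± 147 CPM (adjusted p = 0.00227), the carbohydrate-sensing factor Mlxipl from 79.9 ± 10.1 to 192 ± 29.7 CPM (adjusted p = 0.00126), the NADPH source Me1 from 102 ± 17.5 to 245 ± 20.6 CPM (adjusted p = 0.0012) and Srebf1 from 95.7 ± 1.38 to 171 ± 22.9 CPM (adjusted p = 0.00298). These 7 genes of fatty acid synthesis and its control were thus higher in the livers in which Plin2, Cidec and Hilpda were lower. For all lists the shares to read beside these counts are the 11.9% of all genes that rose and the 13.1% that fell.

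**Figure D5:**
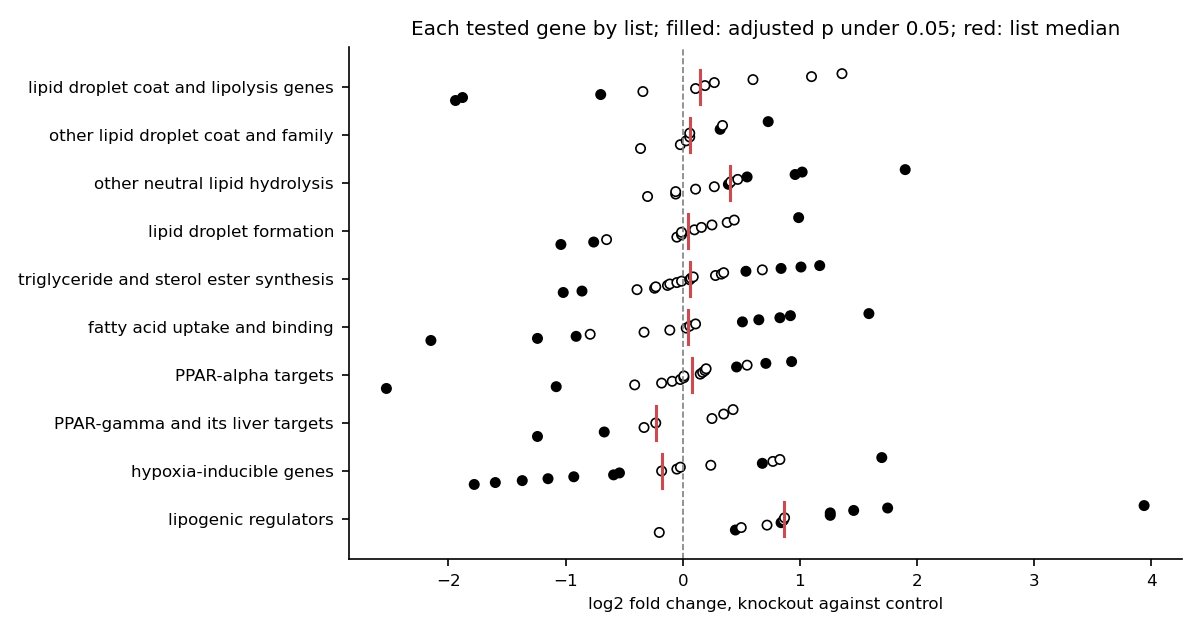
Log2 difference (horizontal axis) of each tested gene of the 10 droplet genes and of the related lists (vertical axis), with filled points for genes that passed the test and a red line at each list's median. The list of lipogenic regulators has the highest median (0.86), and the hypoxia-inducible genes hold 7 filled points below 0.

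Many markers of macrophages and some of hepatocytes differed between the groups, while the few stellate cell and adipocyte markers that passed went both ways. Of 16 macrophage markers, 14 fell and 0 rose (median log2 −1.34), and their summed level was 1618 to 1765 CPM in controls and 438.6 to 969.8 CPM in knockouts. Without knockout 1, 8 fell. Gpnmb, a gene of lipid-laden macrophages, fell from 39.4 ± 7.25 to 2.83 ± 1.92 CPM, and C1qa from 154 ± 1.35 to 71.9 ± 19.8 CPM. No macrophage marker was at 0 in the knockouts. Lipid-laden macrophages can express Plin2 and Hilpda, and the part of these cells in the decreases of Plin2, Cidec and Hilpda was not tested. Among the knockouts, knockout 2 had the lowest summed macrophage markers, with 709.9, 438.6 and 969.8 CPM in knockouts 1, 2 and 3. In knockouts 1, 2 and 3, Plin2 stood at 688, 749.9 and 674 CPM and Cidec at 28.7, 24.3 and 42.4 CPM. Hilpda stood at 4.46, 4.52 and 3.50 CPM, with 93, 94 and 71 counts, so knockouts 1 and 2 were level. The order of these 3 livers and its relation to the macrophage markers were not tested.

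Of 11 tested hepatocyte markers, 5 rose and 0 fell (median log2 0.64), and 3 rose without control 1. Their sum was 72230 to 87340 CPM in controls and 100600 to 137400 CPM in knockouts, and its part in the differences was likewise not tested. Albumin made up most of this sum, at 52690 to 60300 CPM in controls and 72350 to 96510 CPM in knockouts. By itself it did not pass (adjusted p = 0.131 by edgeR). Of 9 stellate cell markers, cells that keep retinyl ester in droplets of their own, 1 rose and 2 fell, and 1 fell without control 2 or control 3. With library totals the stellate counts were 0 higher and 4 lower. Adipocytes hold Cidec, Plin4 and G0s2 at high levels, so their markers were checked. Of 12 adipocyte markers 5 passed the filter, and Adrb3 rose and Aqp7 fell, at means under 3 CPM; neither passed without control 1, control 3 or knockout 1, nor Aqp7 without control 2 or knockout 2. The defining genes Adipoq and Lep had 0 counts in all 6 livers, which allows up to 0.119 to 0.148 CPM by the limit of 3 counts. Plin1, the perilipin of the adipocyte, had 1 count in 1 control and 0 elsewhere, and Cfd and Retn had at most 2 counts in any liver.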

How the data were processed

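The members and the gene lists were chosen with earlier results of these data known, and a pattern already seen in them is no independent support. The deposited values were raw counts per Ensembl gene, 1 column per mouse, from poly-T selected RNA of whole liver, per the labels' protocols. The submitters' processing notes list the build GRCm38.p6 and the tools featureCounts 1.5.0-p3, HISAT2 2.0.5 and StringTie 1.3.3b, without roles. The strand setting and the treatment of reads with several matches are not given in the sources used here.

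Genes were matched to GENCODE M21 (GRCm38; 54495 of 54532), filtered with filterByExpr, scaled by TMM and tested with edgeR 4.0.16 (quasi-likelihood, no covariates) in R 4.3.3. The steps were tested on simulated data. SE is the size of the log2 value divided by the square root of F. CPM used TMM-scaled totals, and CPM per kilobase the union of exons. Ratios had a prior count of 0.5. Of 171 list symbols, 170 matched (Tf did not). No pair of livers of the same group agreed within sampling noise (chi-square per degree of freedom 24.5 to 74.4).

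The named genes were all 10 members, Cd44, Lyz2, up to 4 genes of smallest p that passed in each list or 2 where none passed, and the 3 genes nearest in pattern to a described member. Some of these are given by count only or are not reported here. Genes outside this rule (Nop9, Cidea, Plin1, Alb and genes that complete a count) were chosen after their values were seen. Alternatives were DESeq2 1.42.0, limma-voom (limma 3.58.1), RLE factors, library totals, no filter, at least 50 counts in 3 livers, only protein-coding genes, omission of the 20 most abundant genes, a replicate block by mouse number, and each liver left out. The planned description of protein sequences was not made.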

Additional observations from a re-analysis of the deposited data

How the results depend on the processing

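Of the 10 genes, Cidec and Hilpda kept their direction and passed in all 15 alternatives, and Plin2 kept its direction in all and passed in 9. Scaling by library totals moved the median of all genes to −0.26, gave 904 higher and 3698 lower genes over all genes tested, and turned Plin3 to −0.06, Plin4 to −0.14 and Nop9 to −0.21. With 1 liver left out, 1086 to 1576 genes were higher and 1183 to 1837 lower, and 0 to 1 of the 10 droplet genes was higher (Plin5 or G0s2). Without the filter on low counts 2 were higher, Plin5 and G0s2. Over the livers left out, Plin4 ran from −0.24 (without knockout 3) to 0.39 and Nop9 from −0.01 (without knockout 1) to 0.12, with 0 without control 3, and the difference of the ratio of Pnpla2 to Abhd5 ran from −0.25 to 0.05, with 0.02 without control 1 or knockout 1. The cause of these shifts was not tested.

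Mice of the same number showed no sign of deviating together (correlations of deviations −0.027, 0.044 and −0.018 over genes). Pairs of unlike number ran from −0.093 to 0.094. With 3 livers per group this cannot exclude a pairing by number. With the number as a replicate block, 2 of the 10 genes were lower, since Plin2 (log2 −0.67, adjusted p = 0.0557 by edgeR) did not pass. Of 47 genes named from the lists that passed, a set that does not hold Vegfa, all 47 kept their direction and 30 passed in every alternative. Counts were lowest for Pnpla3 (3 to 30 per liver) and Cidea (0 to 12), where counting error is largest.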
